A study of Mus musculus with 24 samples.

Results

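The genes of antigen presentation by the major histocompatibility complex (MHC), class I and class II, were followed through cultured astrocytes and microglia of wild-type (WT) and *SOD1* G93A mice. The 36 genes were listed by name and role and were looked up among the 24411 genes of each deposited table. They comprise 23 genes of class I and its peptide supply, 11 genes of class II and 2 class I-like genes, *Cd1d1* and *Mr1*. On the class I side are 11 heavy chains, the light chain *B2m*, 5 genes of peptide loading, 5 of the immunoproteasome and the transactivator *Nlrc5*. On the class II side are 3 chains of the molecule itself, 5 genes of peptide exchange, and 3 others: the invariant chain *Cd74*, the transactivator *Ciita* and the lysosomal thiol reductase *Ifi30*. The GENCODE M21 annotation of GRCm38 places 35 of them, 23 on chromosome 17, and does not hold *H2-Q8*.

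A class I molecule pairs a heavy chain with the light chain β2-microglobulin and shows peptides from inside the cell to cytotoxic T cells. Its peptides are cut by proteasomes, among them the immunoproteasome (*Psmb8*, *Psmb9*, *Psmb10*, with the activator *Psme1*/*Psme2*), pumped into the endoplasmic reticulum by *Tap1*/*Tap2*, trimmed by *Erap1* and fitted with the help of tapasin (*Tapbp*). A class II molecule pairs an α and a β chain, travels with the invariant chain, takes up peptides from endosomes through the exchange factors H2-DM and H2-O and is read by helper T cells. Class II is mainly carried by professional antigen-presenting cells, and in the brain it is best known from activated microglia and border macrophages.

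Poly(A) RNA was sequenced from purified primary cells in serum-free culture, with 3 libraries in each of 7 conditions, and 21 of the 24 samples of the series were used. The quiescent microglia of *SOD1* G93A mice were not used here. Astrocytes were taken from forebrain at postnatal day 5 by immunopanning on an antibody to HepaCAM, after plates that remove CD45, BSL I and O4 positive cells. Microglia were taken from perfused whole brain at postnatal days 7 to 10 by magnetic sorting for Cd11b. The *SOD1* G93A mice carry a mutant human *SOD1* transgene and were bred to C57BL/6J for 8 generations, and WT mice served as the comparison. The groups were WT and *SOD1* G93A astrocytes given PBS (quiescent), WT and *SOD1* G93A astrocytes given IL-1α, TNFα and C1q at 3, 30 and 400 ng/mL in that order (activated), WT microglia given PBS (quiescent), and WT and *SOD1* G93A microglia given LPS at 50 ng/mL. All microglia were kept in medium with TGF-β2, IL-34 and cholesterol. The duration of the treatments is not given in the sources used here, and these cells are young cultured cells, not cells of diseased adult tissue. The labels do not say whether the 3 libraries of a condition came from separate animals or cultures, and the study's own list of replicates was not used here, so p-values measure the spread between these libraries, which may be technical.

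Depth ran from 2016139 to 11570122 reads on genes per library, with a median of 5098168. Levels are given as reads per 1000000 reads on genes (rpm), and levels of different presentation genes are compared only as rpm per kilobase of exon (rpm/kb). The most abundant gene of a marker list is the one with the highest rpm, without regard to length. A gene was tested in a comparison where its mean over all libraries compared was at least 10 normalized counts, so a gene near 0 in 1 group could pass through the other. Fold changes come from the normalized counts, whose scaling differs from rpm, so they are not exact ratios of the rpm values. A gene was called higher or lower where limma gave a Benjamini-Hochberg adjusted p under 0.001 and the groups differed over 2-fold. Of the 36 genes, 33 reached the mean of 10 in at least 1 table and 21 in all of them. Heavy chain genes of the *H2-Q* and *H2-T* groups are near-identical in long stretches, and the counting program divides reads that match several of them by an estimate. Values of single *H2-Q* and *H2-T* genes are therefore uncertain. *Psmb9* and *Tap1* overlap at their starts on opposite strands of chromosome 17. The study made its libraries with a strand-specific kit, but the sources used here do not state whether counting used the strand.

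Before the comparisons, the cell type labels were checked against marker genes. The 15 microglial markers summed to 13426 to 14354 rpm in WT quiescent microglia, with *Csf1r* the most abundant, and the 12 astrocyte markers summed to 4277 to 6353 rpm in the astrocyte libraries. Astrocyte markers summed to 139.5 to 235 rpm in microglia. In astrocytes the microglial sum was 344 to 625 rpm and none of the 15 genes was at 0 reads. As a share of quiescent microglia this came to a mean of 3.29% in WT quiescent, 3.25% in WT activated, 4.14% in *SOD1* G93A quiescent and 2.87% in *SOD1* G93A activated astrocytes, and to 2.00%, 2.04%, 2.93% and 1.76% without *Sall1*, the most abundant of them there. Lymphocyte markers summed to at most 3.71 rpm in any library. In WT quiescent microglia the dendritic cell markers summed to 46.7 to 53.3 rpm, with *Itgax* the most abundant. The border macrophage markers summed to 172 to 187 rpm there, with *Clec12a* the most abundant. Single members of these lists, *Cd209a* and *Lyve1*, were at 0 reads in every microglial library.

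Several marker sums differed after activation. After LPS the microglial sum was 4585 to 4912 rpm in WT and 4961 to 6639 rpm in *SOD1* G93A microglia. The border macrophage sum went from a mean of 182 to 421 rpm in WT microglia, with *Clec12a* the most abundant, and from 40.2 to 189 rpm without it. The dendritic cell sum went from 49.8 to 112 rpm. Without *Itgax*, the most abundant before LPS, it was 1.61 rpm in quiescent cells. Without *Ccr7*, the most abundant after LPS, it was 28.5 rpm after LPS. These last values leave out different genes and do not measure a change. The oligodendrocyte-lineage and pericyte/fibroblast lists share *Cspg4*, whose level of 1203 to 1247 rpm in WT quiescent microglia made up most of both sums; without it they had means of 114 and 8.15 rpm, against 45.4 and 20.7 rpm after LPS. In WT astrocytes the oligodendrocyte-lineage sum went from a mean of 2922 to 1075 rpm on activation with *Olig1* the most abundant, and from 1123 to 545 rpm without it. The neuronal sum went from 899 to 428 rpm with *Map2* the most abundant, and from 27.1 to 44.7 rpm without it, and the endothelial sum went from 12.1 to 147 rpm. Without *Flt1* the endothelial means were 3.22 and 3.85 rpm. The pericyte/fibroblast sum went from 74.8 to 121 rpm in WT astrocytes, and without *Cspg4* from 13.4 to 53.0 rpm in WT and from 9.40 to 37.2 rpm in *SOD1* G93A astrocytes. In *SOD1* G93A astrocytes the oligodendrocyte-lineage sum went from a mean of 3290 to 1052 rpm, and from 1169 to 510 rpm without *Olig1*. There the neuronal sum went from 975 to 410 rpm, and from 22.5 to 30.8 rpm without *Map2*. The endothelial sum went from 8.32 to 116 rpm there, and from 2.87 to 2.89 rpm without *Flt1*. Whether these differences have a part in the values below was not tested. In bulk RNA, fewer cells of a type and less RNA per cell cannot be told apart.

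Among the libraries, replicate 3 of the *SOD1* G93A LPS microglia stood apart from replicates 1 and 2, with chi-square values per degree of freedom of 15.7 and 20.3 against 2.32 between the other two. Replicate 1 of the WT LPS microglia did so less strongly, at 14.0 and 12.8 against 1.63. In quiescent astrocytes WT replicate 3 had values of 8.97 and 6.50 against 2.03, and *SOD1* G93A replicate 1 had 6.47 and 9.87 against 2.78. Sex-linked genes, looked at after their values were seen, differed between groups as well. In WT microglia *Ddx3y* on the Y chromosome ran at 22 to 24.5 rpm in the quiescent and 0.392 to 1.07 rpm in the LPS libraries (log2 difference -4.56, limma adjusted p = 3.32e-07), so the sex of the donors and LPS cannot be told apart. Between *SOD1* G93A and WT activated astrocytes *Ddx3y* had a log2 difference of -1.07 (limma adjusted p = 1.01e-05) and *Xist* one of 1.19 (limma adjusted p = 2.62e-07). Between quiescent genotypes *Ddx3y* had one of -1.05 (limma adjusted p = 0.0455), *Kdm5d*, also on the Y chromosome, one of -1.24 (limma adjusted p = 0.0244) and *Xist* one of 1.99 (limma adjusted p = 0.243). Sex and genotype cannot be told apart in either state. Between activated and quiescent *SOD1* G93A astrocytes *Xist* had a log2 difference of -0.93 (limma adjusted p = 0.0421) and *Kdm5d* one of -0.53 (limma adjusted p = 0.00558). There *Ddx3y*, *Eif2s3y* and *Uty*, also on the Y chromosome, had 0.32, 0.27 and -0.098, with limma adjusted p from 0.0638 to 0.763. Whether the sex of the donors has a part in that comparison was not tested.

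In quiescent WT microglia the presentation genes spanned several orders of magnitude. Per kilobase, *B2m* was the most abundant at a mean of 2622 rpm/kb, followed by *H2-D1* at 229 rpm/kb, *Ifi30* at 144 rpm/kb and *H2-K1* at 129.7 rpm/kb. The tapasin gene *Tapbp* had 118 rpm/kb and *Cd74* 44.6 rpm/kb. Class II chains were lower, with 10.3 rpm/kb for *H2-Ab1*, 4.04 rpm/kb for *H2-Eb1* and 1.51 rpm/kb for *H2-Aa*. The transactivator *Ciita* had 0.129 rpm/kb. In quiescent WT astrocytes *B2m* was again first, at 209 rpm/kb, and *H2-K1*, *H2-D1* and *Tapbp* followed with 16.5, 14.9 and 13.7 rpm/kb.

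**Figure D1:**
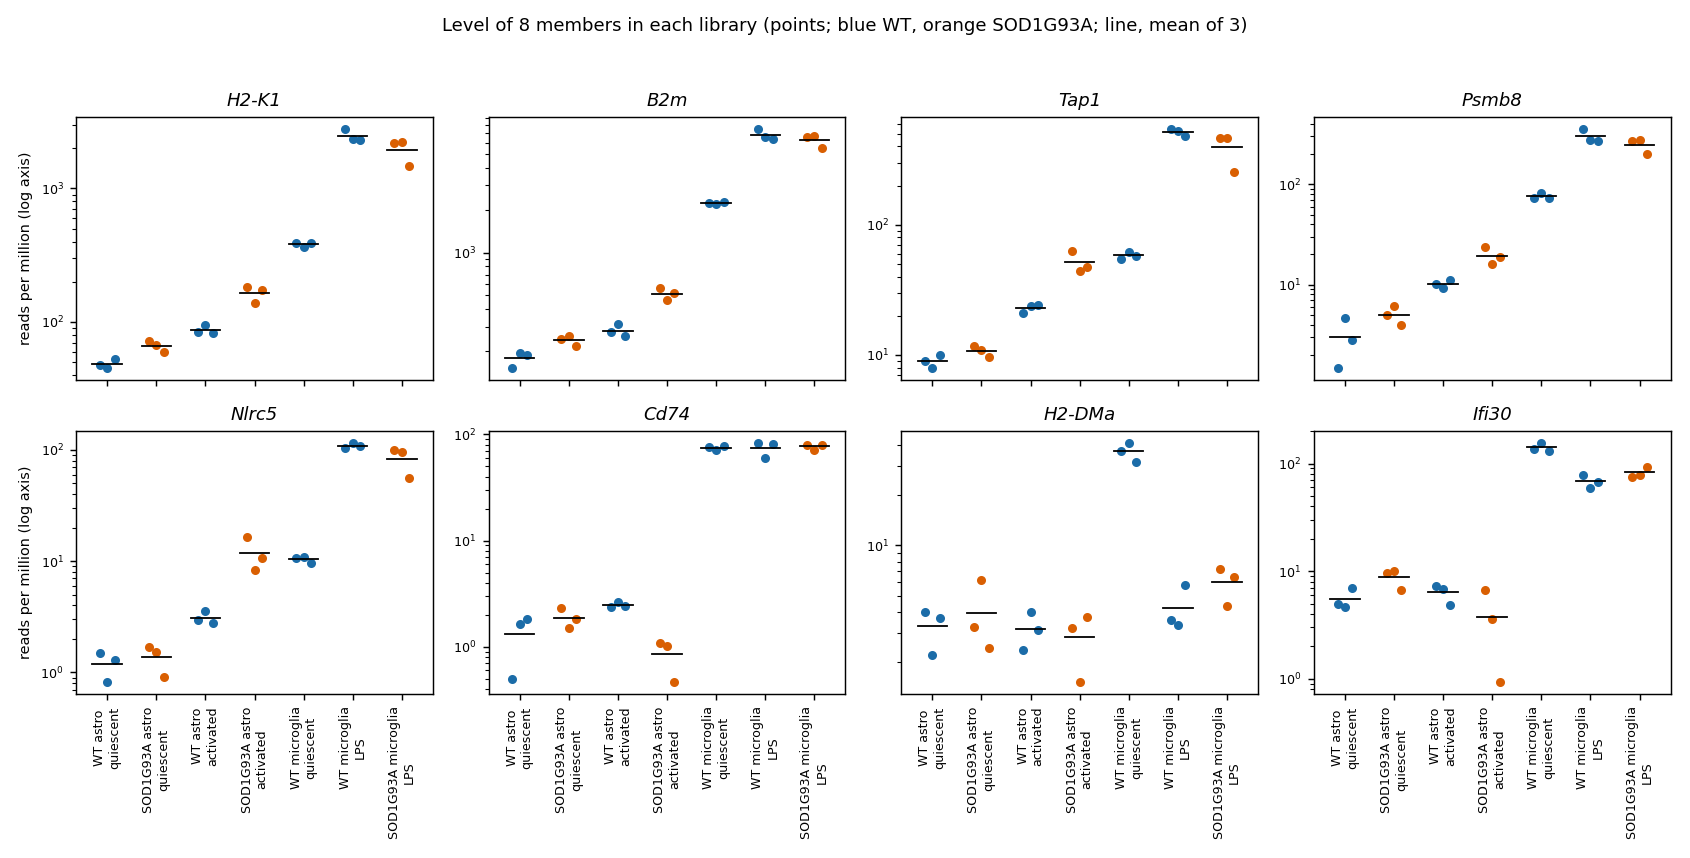
Level of 8 presentation genes in each of the 21 libraries, in rpm on a log axis (points; blue WT, orange *SOD1* G93A; the line is the mean of 3). For *H2-K1*, *B2m*, *Tap1* and *Psmb8* every microglial library given LPS lies above every other library, while *Cd74* overlaps between quiescent and LPS microglia and *H2-DMa* is highest in quiescent microglia.

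The first comparison asked how microglia respond to LPS. Of the class I side, 9 of 10 heavy chains tested, *B2m*, both transporter genes, all 5 immunoproteasome genes and *Nlrc5* rose. The class II side split, with *H2-Ab1* higher, *Cd74*, *H2-Aa* and *H2-Eb1* not called, and the peptide exchange genes *H2-DMa* and *H2-DMb1* lower. Of the 32 genes tested, 21 were called higher and 3 lower, against 10.2% of all 10866 genes called higher and 10.6% called lower. The median log2 fold change was 2.23 over the 22 class I genes tested and -0.66 over the 8 class II genes tested, beside 0.00 over all genes. In rpm, the LPS libraries were all above the quiescent ones for 22 of the 36 genes, all below them for 8, and overlapped for 6. Of the 32 tested these were 22, 5 and 5, beside 22.8% of all genes tested above and 43.4% below.

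*H2-K1*, a classical heavy chain, was at 388, 365 and 390.2 rpm in the quiescent libraries and at 2806, 2334 and 2312 rpm after LPS. *H2-D1*, the other classical heavy chain of this strain, went from 589.6, 581 and 604 rpm to 2619.9, 2356 and 2392 rpm. *B2m* went from 2258, 2221 and 2285 rpm to 7562, 6639 and 6374 rpm. For all 3 the groups were far apart, and WT LPS replicate 1 was the highest. The log2 fold changes were 2.92 (SE 0.09, limma adjusted p = 1.03e-09) for *H2-K1*, 2.27 (SE 0.07, limma adjusted p = 2.14e-09) for *H2-D1* and 1.82 (SE 0.09, limma adjusted p = 3.12e-08) for *B2m*.

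Several non-classical heavy chains were near 0 in quiescent cells and had the largest log2 fold changes of the 36 genes, from few starting reads. *H2-Q8* was at 2.76, 0 and 2.16 rpm in quiescent cells and at 256, 248 and 245 rpm after LPS. *H2-Q7*, the gene of Qa-2, went from 1.28, 2.74 and 4.32 rpm to 252, 209 and 211 rpm. *H2-T10*, a polymorphic pseudogene in the annotation, went from 0.394, 1.18 and 0.288 rpm to 41.7, 27.7 and 23.5 rpm. None of the 3 overlapped between the groups. Their log2 fold changes were 8.06 (SE 0.80, limma adjusted p = 1.07e-05), 6.59 (SE 0.32, limma adjusted p = 4.18e-08) and 5.59 (SE 0.39, limma adjusted p = 6.32e-07), and at so few starting reads they depend on the pseudocount of 1. With one of 5 the value of *H2-T10* was 4.55, and without quiescent replicate 2, at 0, *H2-Q8* was at 6.80. *H2-Q8* and *H2-T10* reached the mean of 10 through the LPS libraries.

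Because reads are divided among these genes, their sums are less uncertain than the single values. The sum of *H2-Q4*, *H2-Q6*, *H2-Q7* and *H2-Q8* was at 42.7, 32.9 and 39.6 rpm in quiescent cells and at 1169, 1024 and 982 rpm after LPS, a log2 fold change of 5.00 (limma adjusted p = 8.25e-11). *H2-T22*, a close relative of *H2-T10*, was at 9.06, 0 and 10.4 rpm and then at 179, 145 and 177 rpm, but with its quiescent replicate 2 at 0 it missed the limit (log2 6.20, SE 1.20, limma adjusted p = 0.00131). It was called with edgeR and with DESeq2. It was also called without that library, where its log2 value was 4.30, without WT quiescent replicate 3 (7.20) and without WT LPS replicate 1 (6.16). The sum of *H2-T10* and *H2-T22* was called, at log2 5.45 (limma adjusted p = 2.53e-05). The other heavy chains called higher were *H2-Q4*, *H2-T24*, *H2-T23* and *H2-M3*, at log2 4.33, 3.37, 1.95 and 1.85. *H2-Q6* was under the mean of 10, with 6 reads in the quiescent libraries together and 0 after LPS.

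The genes that supply peptides were higher too, with 1 exception. *Tap1*, a subunit of the transporter that carries peptides into the endoplasmic reticulum, was at 54.5, 62.3 and 57.9 rpm in quiescent cells and at 549, 522 and 481 rpm after LPS, a log2 fold change of 3.36 (SE 0.09, limma adjusted p = 6.76e-10). Its partner *Tap2* had a log2 fold change of 1.87, tapasin (*Tapbp*) one of 1.63 and the tapasin-related editor *Tapbpl* one of 1.41, and all 3 were called higher. *Erap1*, which trims peptides in the endoplasmic reticulum, was at 78.2, 71.0 and 79.7 rpm and then at 59.7, 83.8 and 80.2 rpm. These groups overlapped and the gene was not called (log2 0.17, SE 0.14, limma adjusted p = 0.320).

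All 5 immunoproteasome genes were called higher. *Psmb8*, a catalytic subunit, was at 72.5, 81.6 and 73.8 rpm in quiescent and at 359, 276 and 268 rpm in LPS microglia (log2 2.19, SE 0.11, limma adjusted p = 6.5e-08). The other catalytic subunits *Psmb9* and *Psmb10* had log2 fold changes of 2.55 and 1.88, and the activator subunits *Psme1* and *Psme2* had 1.13 and 2.11. After quantile normalization *Psme1* was under 2-fold and not called. *Nlrc5*, the transactivator of class I genes, was at 10.7, 11.0 and 9.65 rpm and then at 103, 116 and 108 rpm. Its log2 fold change of 3.57 (SE 0.11, limma adjusted p = 1.82e-09) was larger than those of *H2-K1*, *B2m* and *Tap1* in the same libraries.

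The class II chains differed little beside this. *H2-Ab1*, a β chain, was at 28.4, 25.5 and 25.2 rpm in quiescent cells and at 60.7, 44.1 and 48.3 rpm after LPS, and was the only class II gene called higher (log2 1.15, SE 0.12, limma adjusted p = 1.82e-05). *H2-Aa*, the α chain that pairs with it, was at 7.29, 3.92 and 6.05 rpm and then at 4.56, 3.92 and 2.14 rpm (log2 -0.49, SE 0.32, limma adjusted p = 0.222). *H2-Eb1*, the β chain of the second class II isotype, was at 8.27, 8.23 and 7.06 rpm and then at 9.48, 6.67 and 5.78 rpm (log2 0.08, SE 0.21, limma adjusted p = 0.759). Both of these overlapped between the groups, and without WT LPS replicate 1 the log2 value of *H2-Eb1* was -0.10.

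*Cd74*, whose product escorts new class II molecules and blocks their groove, was at 75.5, 71.0 and 78.1 rpm in quiescent and at 83.5, 59.4 and 80.9 rpm in LPS microglia. The groups overlapped, and *Cd74* was not called (log2 0.20, SE 0.12, limma adjusted p = 0.193). *Ciita*, the transactivator of class II genes, was at 1.28, 0.392 and 2.02 rpm and then at 0, 0.196 and 0 rpm. Summed over libraries these were 28 reads and then 1 read, under the mean of 10, and the ratio of pooled rates was 0.0392 with a 95% interval from 0.000959 to 0.237. Such intervals cover counting error only, not the spread between libraries.

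Of the 5 genes of class II peptide exchange 2 were called lower after LPS. *H2-DMa*, the α chain of the exchange factor H2-DM, was at 36.9, 41.2 and 31.6 rpm in quiescent cells and at 3.57, 3.33 and 5.78 rpm after LPS, the largest fall among the 36 genes that was called (log2 -2.88, SE 0.21, limma adjusted p = 1.03e-06). *H2-DMb1*, its β chain, was at 27.2, 29.4 and 29.4 rpm and then at 8.74, 3.92 and 7.49 rpm (log2 -1.93, SE 0.24, limma adjusted p = 6.53e-05), a call lost without the trend at limma adjusted p = 0.00101. *H2-Ob*, the β chain of the modulator H2-O, missed the limit (log2 -2.44, SE 0.53, limma adjusted p = 0.00258) and was called with DESeq2 and without WT LPS replicate 1 (log2 -3.00, limma adjusted p = 5.24e-05). Both *H2-DMb2*, with 31 reads and then 8, and *H2-Oa*, with 35 and then 10, were under the mean of 10.

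Outside the chains, *Ifi30*, which reduces disulfide bonds of antigens in lysosomes, was at 135, 156 and 131 rpm and then at 78.8, 59.2 and 67.2 rpm. Its groups did not overlap, but the difference was under 2-fold and it was not called (log2 -0.83, SE 0.12, limma adjusted p = 0.000132). *Mr1*, which shows vitamin B metabolites of microbes to T cells, went from 17.9, 22 and 16.1 rpm to 4.43, 3.14 and 3.42 rpm and was the third gene called lower (log2 -2.09, SE 0.20, limma adjusted p = 6.52e-06). *Cd1d1*, which shows lipids, stayed at 3.15 to 5.35 rpm in all 6 libraries and was not called (log2 0.22, limma adjusted p = 0.517).

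Summed, class I heavy chains and *B2m* made up 3423, 3355 and 3460 rpm in quiescent and 14982, 13103 and 12809.6 rpm in LPS microglia, while the 11 class II genes made up 328, 343 and 319 rpm and then 252, 181 and 219 rpm. Without WT LPS replicate 1, the library that stood apart, the class I median was 2.16 with 21 genes called and the class II median was -0.80 with 4 called. The part that the fall of the microglial marker sum has in these values was not tested.

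In WT astrocytes given IL-1α, TNFα and C1q, genes that supply class I peptides rose. The immunoproteasome genes *Psmb10*, *Psme1* and *Psme2*, the transporter gene *Tap1* and the trimming enzyme gene *Erap1* were called higher, at 2.36 to 3.13-fold. The heavy chains and *B2m* had smaller fold changes, and none was called by limma, edgeR or DESeq2. Class II was close to the limit of counting. Of the 22 genes tested, 5 were called higher and none lower, against 6.0% of all 12336 genes called higher and 5.54% called lower.

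With edgeR 8 genes were called, as with DESeq2. At an adjusted p under 0.05 and any fold, 16 of the 22 were past the limit, all higher, against 38.3% of all genes in either direction. The median log2 fold change was 1.06 over the 18 class I genes tested, beside 0.01 over all genes, and the 2 class II genes tested, *H2-DMa* and *Ifi30*, had log2 fold changes of -0.01 and 0.22. In rpm the activated libraries were all above the quiescent ones for 17 of the 36 genes, all below for 0, and overlapped for 19. Of the 22 tested, 16 were above, beside 24.2% of all genes tested above and 26.7% below. WT quiescent replicate 1 held 2016139 reads, the fewest of the 21 libraries.

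*H2-K1* was at 47.6, 45.4 and 52.5 rpm in quiescent and at 84.0, 94.9 and 82.4 rpm in activated astrocytes. *H2-D1* was at 30.3, 38.8 and 46.6 rpm and then at 53.7, 57.3 and 47.8 rpm. *B2m* was at 153, 196 and 189 rpm and then at 274, 311 and 257 rpm. None of the 3 overlapped between the groups, but for *H2-D1* the highest quiescent and the lowest activated library nearly met. Their log2 fold changes were 0.87 (SE 0.10, limma adjusted p = 5.8e-05), 0.50 (SE 0.16, limma adjusted p = 0.0288) and 0.67 (SE 0.12, limma adjusted p = 0.000804), each under 2-fold.

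The other heavy chains had fold changes of both signs. *H2-Q4* was at 12.9, 13.2 and 11.4 rpm in quiescent cells and at 24, 20.1 and 21 rpm in activated cells (log2 0.81, SE 0.14, limma adjusted p = 0.00101). *H2-T22*, *H2-T23* and *H2-T24* had log2 values of 0.86, 0.64 and 0.31 and *H2-Q7* one of -0.59, with standard errors of 0.30, 0.40, 0.17 and 0.57. The sum of the 4 *H2-Q* genes gave 0.57 (limma adjusted p = 0.00862). *H2-Q6*, *H2-Q8*, *H2-T10* and *H2-M3* were under the mean of 10, at 4, 15, 11 and 13 reads in the quiescent and 12, 8, 15 and 12 reads in the activated libraries together.

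Among the peptide loading genes, *Tap1* went from 8.93, 7.97 and 9.94 rpm to 21, 23.8 and 24.4 rpm (log2 1.37, SE 0.16, limma adjusted p = 4.76e-05). *Erap1* went from 17.4, 20.6 and 21 rpm to 48.9, 43.9 and 44.5 rpm (log2 1.24, SE 0.13, limma adjusted p = 1.74e-05). *Tapbp* missed only the 2-fold limit, at log2 0.94 (limma adjusted p = 1.47e-05). *Tap2* and *Tapbpl* missed only the limit on p, both at log2 1.19 with limma adjusted p = 0.00108 and 0.00102, and both were called with edgeR and with DESeq2.

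Of the immunoproteasome, *Psmb10* went from 11.4, 10.4 and 8.32 rpm to 31.7, 31.8 and 29.9 rpm (log2 1.65, SE 0.15, limma adjusted p = 5.63e-06). *Psme1* went from 20.8, 22 and 20.0 rpm to 60.8, 55.8 and 55.5 rpm (log2 1.47, SE 0.11, limma adjusted p = 1.2e-06). *Psme2* went from 26.3, 16.8 and 13.1 rpm to 46.6, 48.2 and 45.6 rpm (log2 1.40, SE 0.20, limma adjusted p = 0.000204). For all 3 the groups were apart. The call of *Psme2* was lost without any 1 of the WT activated libraries, without WT quiescent replicate 2 and without the trend, with limma adjusted p from 0.00124 to 0.00328.

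*Psmb8* had the largest fold change of the 22, from 1.49, 4.67 and 2.81 rpm to 10.1, 9.31 and 11.1 rpm. Its quiescent libraries were far apart and it was not called (log2 1.85, SE 0.35, limma adjusted p = 0.00166). It was called with edgeR, with DESeq2 and without any 1 of the quiescent libraries, where the limma adjusted p was 0.000516 to 0.000779. *Psmb9*, at 12 and then 17 reads in all, was under the mean of 10. *Nlrc5* was at 1.49, 0.825 and 1.30 rpm and then at 2.97, 3.55 and 2.78 rpm, and was not called (log2 1.28, SE 0.38, limma adjusted p = 0.0222).

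The class II chains and their transactivator were near 0 in WT astrocytes of both states. *H2-Aa* had 1 read in the quiescent and 2 in the activated libraries together, *H2-Eb1* 4 and 5, and *Ciita* 3 and 12. *H2-Ab1* was at 0, 1.37 and 1.08 rpm in quiescent and at 0.792, 2.36 and 1.39 rpm in activated cells, which overlapped. *Cd74* was at 0.496, 1.65 and 1.84 rpm and then at 2.38, 2.66 and 2.44 rpm, with 24 and then 44 reads and a pooled ratio of 1.56 (95% interval 0.926 to 2.68). The microglial markers were at 3.29% and 3.25% of their level in quiescent microglia, or at 2.00% and 2.04% without *Sall1*. Beside them *Cd74* came to 1.77% and 3.33% of its own level and the class II sum to 3.85% and 4.77%. Whether the class II reads come from the astrocytes was not tested.

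The peptide exchange gene *H2-DMa* had a mean past the limit and ran at 2.20 to 3.99 rpm in both states. *H2-DMb1* had 15 and then 13 reads, and *H2-DMb2*, *H2-Oa* and *H2-Ob* had at most 3 reads in either state. *Ifi30* ran at 4.67 to 7.33 rpm with overlap (log2 0.22, limma adjusted p = 0.554). *Mr1* was at 9.92, 11.5 and 9.83 rpm and then at 15.5, 16.5 and 14.4 rpm, apart but not called (log2 0.59, SE 0.16, limma adjusted p = 0.0123), and *Cd1d1* overlapped (log2 0.46, SE 0.33, limma adjusted p = 0.305). The class I heavy chains and *B2m* summed to 273, 319 and 324 rpm and then to 467, 517 and 444 rpm.

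In *SOD1* G93A astrocytes given the same cytokines, 13 of the 22 genes tested were called higher. The list held the whole peptide loading group, the 4 immunoproteasome genes tested, *Nlrc5*, *B2m* and the heavy chains *H2-K1* and *H2-Q4*. None of the 22 was called lower. Over all 12269 genes, 6.74% were called higher and 6.59% lower. The oligodendrocyte-lineage, neuronal, endothelial and pericyte/fibroblast marker sums, given above, differed between the states as well, and their part was not tested. This comparison was fitted over all 12 astrocyte libraries, while that in WT astrocytes used its 6 libraries alone. The counts of calls in the genotypes therefore cannot be set against each other. Here edgeR, DESeq2 and limma without a trend each called 13 genes as well.

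*Nlrc5* went from 1.68, 1.52 and 0.911 rpm in quiescent to 16.4, 8.40 and 10.8 rpm in activated *SOD1* G93A astrocytes (log2 2.98, SE 0.35, limma adjusted p = 2e-06). It rested on 30 reads in the quiescent *SOD1* G93A libraries together, and with a pseudocount of 5 the log2 value was 2.42. *Tap1* went from 11.8, 10.9 and 9.72 rpm to 63.4, 44.0 and 47.3 rpm (log2 2.30, SE 0.16, limma adjusted p = 3.33e-09). *Psmb10* went from 11.1, 10.3 and 14.6 rpm to 42.5, 44.8 and 52.4 rpm (log2 2.03, SE 0.15, limma adjusted p = 7.47e-09). *Psmb8* went from 5.04, 6.07 and 3.95 rpm to 23.6, 16.0 and 18.7 rpm (log2 1.99, SE 0.31, limma adjusted p = 4.47e-05). None of these 4 genes overlapped between the states, and activated replicate 1 was the highest for all but *Psmb10*.

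The classical heavy chains and *B2m* had smaller fold changes than *Nlrc5*, *Tap1*, *Psmb10* and *Psmb8*. *H2-K1* went from 72.0, 66.9 and 59.2 rpm to 182, 139.7 and 174 rpm (log2 1.40, SE 0.12, limma adjusted p = 2.76e-08). *B2m* went from 244, 259 and 218 rpm to 562, 461 and 517 rpm (log2 1.17, SE 0.11, limma adjusted p = 1.71e-07). *H2-D1*, at 54.6, 56.4 and 44.3 rpm and then at 116, 73.8 and 102 rpm, fell just short of 2-fold and was not called (log2 0.97, SE 0.17, limma adjusted p = 0.000175). *H2-Q4* had a log2 fold change of 1.94 (SE 0.15, limma adjusted p = 8.63e-09). The other genes called were *Tapbpl*, *Tap2*, *Psme1*, *Erap1*, *Psme2* and *Tapbp*, at log2 1.77, 1.63, 1.49, 1.48, 1.32 and 1.29.

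Not called in *SOD1* G93A astrocytes were *H2-T23* (log2 0.79), *H2-T22* (0.39), *H2-T24* (0.25) and *H2-Q7* (-0.12) among the heavy chains, and the class I-like *Mr1* (0.28) and *Cd1d1* (-0.18). On the class II side *H2-DMa* had a log2 value of -0.36 and *Ifi30* one of -1.43 (SE 0.45, limma adjusted p = 0.0162). *Ifi30* was at 9.66, 10.1 and 6.68 rpm and then at 6.72, 3.56 and 0.937 rpm, with a narrow overlap, and without activated replicate 3, which held 2 of its reads, the log2 value was -0.72. *H2-DMa*, *H2-T22* and *H2-Q7* turned direction when single libraries were left out.

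The remaining 14 genes were under the mean of 10 in the *SOD1* G93A astrocytes as in the WT: 4 heavy chains, *Psmb9*, the 3 class II chains, *H2-DMb1*, *H2-DMb2*, *H2-Oa*, *H2-Ob*, *Cd74* and *Ciita*. *Cd74* was at 2.31, 1.52 and 1.82 rpm in quiescent and at 1.07, 1.02 and 0.468 rpm in activated *SOD1* G93A astrocytes, which did not overlap, and 39 reads against 9 gave a pooled ratio of 0.473 (95% interval 0.202 to 0.993). *H2-Ab1* was at 1.99, 1.38 and 2.43 rpm and then at 0, 1.02 and 0.937 rpm, with a pooled ratio of 0.333 (0.115 to 0.795). Beside them the microglial markers went from 4.14% to 2.87% of their level in quiescent microglia, or from 2.93% to 1.76% without *Sall1*, and the class II sum from 5.65% to 2.80%. Whether the reads of these genes come from the astrocytes was not tested. *H2-Aa* had 2 and then 0 reads, *H2-Eb1* 4 and then 3, and *Ciita* 12 and then 2. *Psmb9* gave a ratio of 2.26 (1.17 to 4.36) from 20 and then 22 reads. *H2-Q6* had 34 and then 0 reads, which belong to a gene whose reads are shared with its neighbours by estimate.

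Between genotypes, activated *SOD1* G93A astrocytes held more class I RNA than activated WT astrocytes. *Nlrc5*, *H2-T23*, *H2-Q4* and *Tap1* were called higher, at 2.27 to 3.61-fold, and *H2-K1*, *H2-D1* and *B2m* were 1.86 to 1.94-fold higher, under the limit of 2-fold. In rpm, all *SOD1* G93A libraries were above all WT libraries for 17 of the 36 genes, below them for 3 and overlapping for 16. Of the 22 tested, 16 were above and 1 below, beside 9.41% of all genes tested above and 15.7% below. Of the 22 genes tested, 4 were called higher and none lower, against 0.521% of all 12098 genes called higher and 0.124% called lower. At an adjusted p under 0.05 and any fold, 11 of the 22 were past the limit, all higher, against 7.27% of all genes.

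*Nlrc5* was at 2.97, 3.55 and 2.78 rpm in WT and at 16.4, 8.40 and 10.8 rpm in *SOD1* G93A activated astrocytes (log2 1.85, SE 0.26, limma adjusted p = 8.52e-05). The gap between the groups was wider than the range in WT, and replicate 1 was the highest of the *SOD1* G93A libraries. Without that library *Nlrc5* was not called (log2 1.60, limma adjusted p = 0.0016). *H2-T23*, the gene of Qa-1, was at 3.76, 5.91 and 4.0 rpm and then at 12.4, 11.7 and 11.2 rpm (log2 1.39, SE 0.23, limma adjusted p = 0.000398). Its call was lost without WT replicate 1 or 3, without *SOD1* G93A replicate 1 or 2, without the filter on the mean and without the trend, with limma adjusted p from 0.00258 to 0.0149.

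*H2-Q4* was at 24, 20.1 and 21 rpm in WT and at 63.4, 41.7 and 50.6 rpm in *SOD1* G93A cells (log2 1.27, SE 0.13, limma adjusted p = 1.39e-06). *Tap1* was at 21, 23.8 and 24.4 rpm and then at 63.4, 44.0 and 47.3 rpm (log2 1.18, SE 0.13, limma adjusted p = 2.2e-06). In both, *SOD1* G93A replicate 1 was again the highest, and without it 2 of the 22 genes were called. The 4 calls were made by edgeR and by DESeq2 in the same number, and limma without a trend called 0 of the 22, at 1 call over all genes.

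*H2-K1* was at 84.0, 94.9 and 82.4 rpm in WT and at 182, 139.7 and 174 rpm in *SOD1* G93A cells (log2 0.95, SE 0.09, limma adjusted p = 2.5e-07). *H2-D1* was at 53.7, 57.3 and 47.8 rpm and then at 116, 73.8 and 102 rpm (log2 0.89, SE 0.12, limma adjusted p = 3.68e-05). *B2m* was at 274, 311 and 257 rpm and then at 562, 461 and 517 rpm (log2 0.91, SE 0.07, limma adjusted p = 4.05e-08). The genotypes were apart for all 3, and in *SOD1* G93A cells replicate 2 was the lowest each time. Without that library *H2-K1* and *H2-D1* were both called. Heavy chains and *B2m* together came to 467, 517 and 444 rpm in WT and to 957, 753 and 899 rpm in *SOD1* G93A cells.

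Of the other genes of peptide supply, *Psmb8* was at 10.1, 9.31 and 11.1 rpm and then at 23.6, 16.0 and 18.7 rpm (log2 0.95, SE 0.17, limma adjusted p = 0.00131). *Psmb10* had a log2 value of 0.61 (SE 0.11, limma adjusted p = 0.000741), and *Psme2* and *Psme1* had 0.31 and 0.28, with limma adjusted p = 0.0332 and 0.0435. *Tapbpl*, *Tap2*, *Erap1* and *Tapbp* lay between 0.25 and 0.44, with limma adjusted p from 0.0517 to 0.156. *Psmb9*, under the mean of 10, had 17 and 22 reads and a pooled ratio of 2.32 (1.18 to 4.66).

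Of the other heavy chains, *H2-Q7* had a log2 value of 1.01 (SE 0.41, limma adjusted p = 0.163), *H2-T22* one of -0.18 (SE 0.39) and *H2-T24* one of -0.16 (SE 0.17). *H2-T22* at 11.1, 10.8 and 16.2 rpm and then at 4.30, 10.2 and 27.2 rpm varied more within *SOD1* G93A cells than between genotypes, and its direction turned with DESeq2. The sum of the 4 *H2-Q* genes had a log2 value of 1.23 (limma adjusted p = 1.56e-06). The class I-like *Cd1d1* and *Mr1* had 0.25 and -0.11.

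Neither class II gene tested was called between activated genotypes: *H2-DMa* had a log2 value of -0.17 (SE 0.38, limma adjusted p = 0.864) and *Ifi30* one of -1.01 (SE 0.44, limma adjusted p = 0.197), which was -0.30 without *SOD1* G93A replicate 3. *Cd74*, under the mean of 10, was at 2.38, 2.66 and 2.44 rpm in WT and at 1.07, 1.02 and 0.468 rpm in *SOD1* G93A cells, with 44 reads against 9 and a pooled ratio of 0.367 (0.158 to 0.762). *H2-Ab1* had 28 reads against 6 and a ratio of 0.385 (0.130 to 0.947), and *Ciita* 12 against 2 and 0.299 (0.0325 to 1.34). *H2-Aa* was at 0, 0.148 and 0.174 rpm and then at 0 in all 3 libraries, and *H2-Eb1* ran at 0 to 0.591 rpm. The 11 class II genes summed to 14.3, 19.4 and 13.6 rpm in WT and to 11.8, 8.40 and 7.49 rpm in *SOD1* G93A cells. Beside them the microglial markers were at 3.25% and 2.87% of their level in quiescent microglia, or at 2.04% and 1.76% without *Sall1*.

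The genotypes were also compared in quiescent astrocytes, where no gene of the 36 was called. For 7 of them every *SOD1* G93A library was above every WT library in rpm, namely *H2-K1*, *H2-Q4*, *H2-T23*, *B2m*, *Psme1*, *H2-Ab1* and *Cd1d1*, and 29 overlapped. All but *H2-Ab1* were among the 21 genes tested, and of all genes tested 8.10% were above and 7.21% below. The limma fit called 0 of the 21 genes tested, against 0% of all 12271 genes, and 0 were past an adjusted p of 0.05, against 0.0570% of all genes. At an unadjusted p under 0.05 there were 6 of the 21, beside 8.70% of all genes. With edgeR and with DESeq2 the calls were 0 of the 21 as well, against 0 and 7 of all genes, with 6 and 5 of the 21 at an unadjusted p under 0.05. The median log2 fold change was 0.25 over the class I genes and 0.00 over all genes.

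*H2-K1* was at 47.6, 45.4 and 52.5 rpm in WT and at 72.0, 66.9 and 59.2 rpm in *SOD1* G93A quiescent cells (log2 0.42, SE 0.12, limma adjusted p = 0.394). *B2m* was at 153, 196 and 189 rpm and then at 244, 259 and 218 rpm (log2 0.40, SE 0.12, limma adjusted p = 0.434). *H2-D1* was at 30.3, 38.8 and 46.6 rpm and then at 54.6, 56.4 and 44.3 rpm, with overlap (log2 0.42, SE 0.17, limma adjusted p = 0.540). The other genes at an unadjusted p under 0.05 were *H2-T23* (log2 1.24, SE 0.37), *Cd1d1* (log2 0.89, SE 0.28) and *Ifi30* (log2 0.63, SE 0.26). *Tap1* and *Psmb8* had log2 values of 0.24 and 0.80 with limma adjusted p = 0.729 and 0.606. *Tap1* was at 8.93, 7.97 and 9.94 rpm in WT and at 11.8, 10.9 and 9.72 rpm in *SOD1* G93A cells, with overlap, and *Psmb8* at 1.49, 4.67 and 2.81 rpm and at 5.04, 6.07 and 3.95 rpm, with overlap. The microglial markers were at 3.29% of their level in quiescent microglia in WT and at 4.14% in *SOD1* G93A cells, or at 2.00% and 2.93% without *Sall1*, and their part in these values was not tested.

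Under the mean of 10 were the 14 genes named for the activated cells and *Nlrc5*, at 18 reads in WT and 30 in *SOD1* G93A quiescent cells with a pooled ratio of 1.24 (0.668 to 2.36). *Cd74* gave a ratio of 1.21 (0.708 to 2.10). *H2-Aa*, *H2-Eb1* and *Ciita* had 1, 4 and 3 reads in WT and 2, 4 and 12 in *SOD1* G93A cells. *H2-Q6*, at 4 and 34 reads, gave 6.32 (2.25 to 24.5), and with the reads of the *H2-Q* genes summed the log2 value was 0.29. The remaining 13 genes tested overlapped between genotypes with the exceptions of *H2-Q4* and *Psme1*, and had log2 values from -0.15 to 0.55.

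Whether activation acted differently in the genotypes was tested by the interaction, the cytokine response in *SOD1* G93A minus that in WT astrocytes. The largest values above 0 fell on *Nlrc5*, *H2-Q4* and *Tap1*, but the spread was wide and no gene was called. The limma fit called 0 of 22, against 0% of all 12269 genes, and edgeR and DESeq2 called 0 of 22 as well, against 4 and 22 of all genes. At an adjusted p under 0.05 there was 1 of the 22, *H2-Q4*, against 0.277% of all genes, and at an unadjusted p under 0.05 there were 7 in limma, 9 in edgeR and 7 in DESeq2, beside 8.30%, 8.72% and 6.28% of all genes. The median interaction was 0.42 over the class I genes and 0.00 over all genes.

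*H2-Q4* went from a range of 11.4 to 13.2 rpm to one of 20.1 to 24 rpm in WT, and from 13.3 to 14.5 rpm to 41.7 to 63.4 rpm in *SOD1* G93A astrocytes. Its interaction was 1.14 on the log2 scale (SE 0.21, limma adjusted p = 0.0286), with 0.0863 as limma adjusted p for the sum of the *H2-Q* genes. *Nlrc5* had an interaction of 1.72 (SE 0.50, limma adjusted p = 0.272) and *Tap1* one of 0.94 (SE 0.23, limma adjusted p = 0.135). *H2-K1* had 0.53 (SE 0.16) and *B2m* 0.51 (SE 0.16), and *Tapbp* had 0.35. *Ifi30*, the only one of the 7 below 0, had -1.65 (SE 0.64, limma adjusted p = 0.491), which was -0.93 without *SOD1* G93A activated replicate 3. *H2-D1* and *Psmb8* had 0.47 and 0.15, and the latter turned direction without single libraries. The other 13 genes tested lay between -0.63 and 0.59, and the 14 under the mean of 10 were those of the WT comparison.

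Activation in WT cells and the comparison of quiescent genotypes share the WT quiescent libraries, and activation in WT and the comparison of activated genotypes share the WT activated libraries. A value that runs high or low in a shared library enters both. Side by side, *H2-K1* had log2 values of 0.87 for activation in WT, 1.40 for activation in *SOD1* G93A, 0.42 for genotype in quiescent and 0.95 for genotype in activated cells. For *B2m* these were 0.67, 1.17, 0.40 and 0.91, and for *Tap1* 1.37, 2.30, 0.24 and 1.18.

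**Figure D2:**
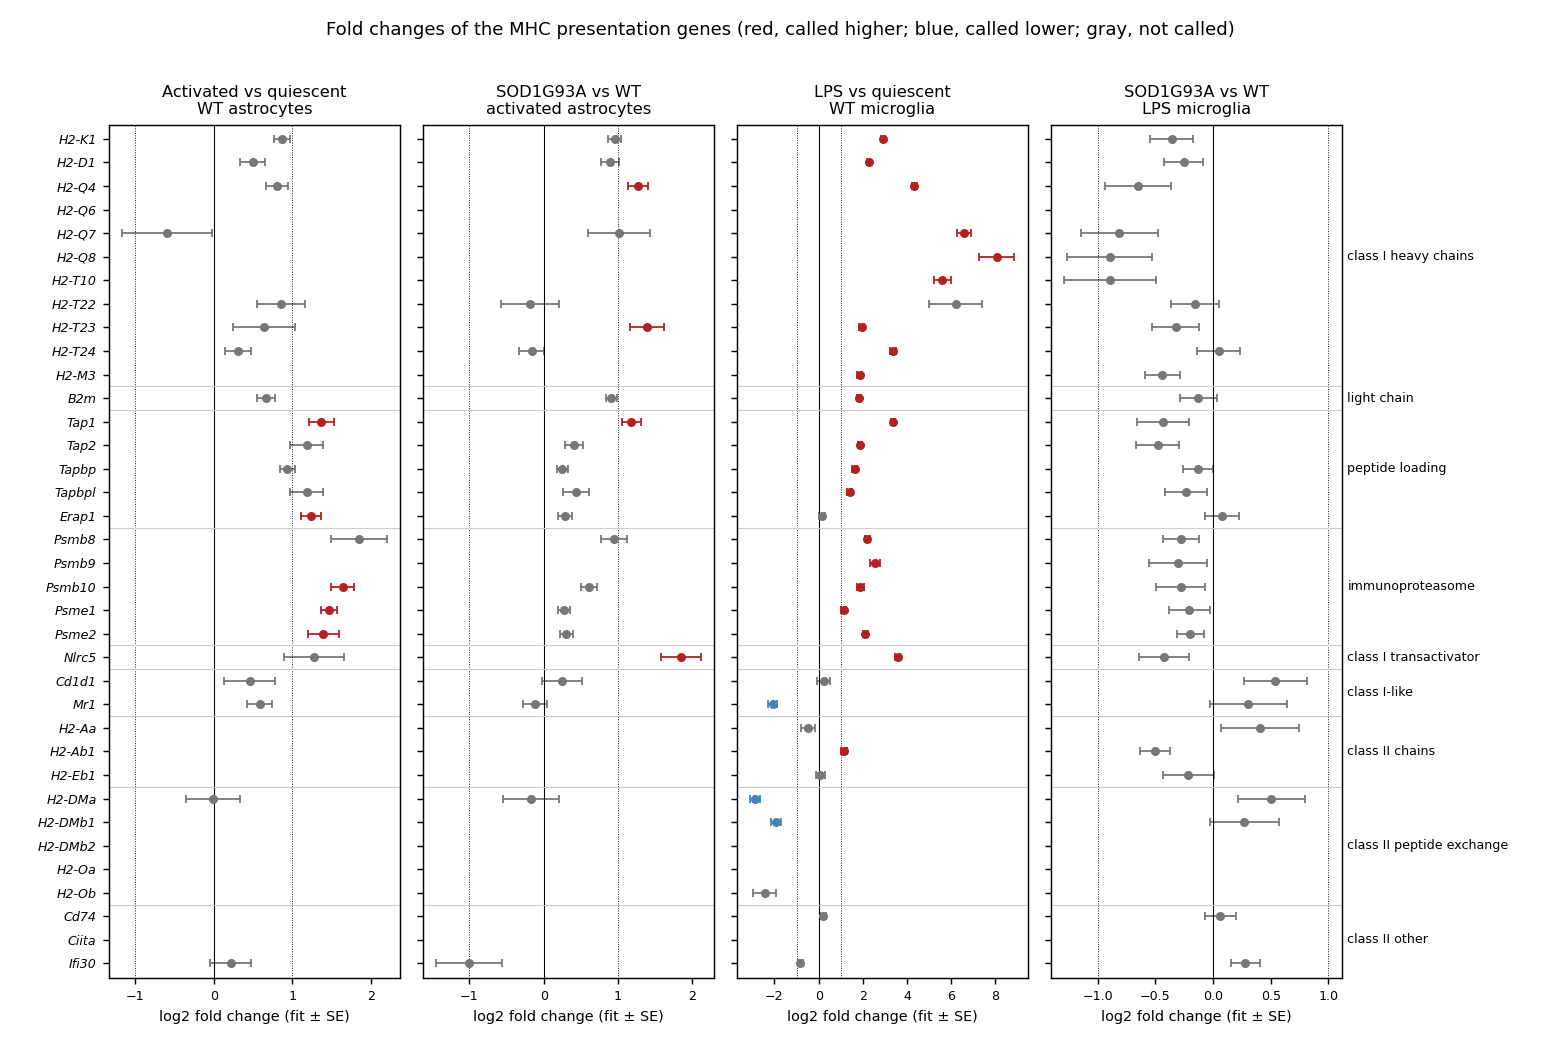
Log2 fold change with its standard error for each gene tested, by role, in activated against quiescent WT astrocytes, *SOD1* G93A against WT activated astrocytes, LPS against quiescent WT microglia and *SOD1* G93A against WT LPS microglia (red called higher, blue called lower, gray not called, dotted lines at 2-fold, x axes on different scales). Most class I genes lie to the right of 0 in the first 3 panels, and in the fourth no gene was called.

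In microglia given LPS, no presentation gene passed the limits between *SOD1* G93A and WT cells. Most class I genes had values below 0, which were closer to 0 without 1 of the libraries. All 3 *SOD1* G93A libraries were below all 3 WT libraries in rpm for 11 of the 36 genes, above for 1, *H2-Oa*, and overlapping for 24. Of the 31 tested 11 were below, beside 9.86% of all genes tested below and 8.25% above. The limma fit called 0 of the 31 genes tested, against 0% of all 10679 genes, and 0 were past an adjusted p of 0.05, against 0.00936% of all genes. There were 6 genes at an unadjusted p under 0.05, beside 8.71% of all genes. With edgeR and DESeq2 the calls were 0 of the 31 as well, against 0 and 3 of all genes, with 3 and 6 of the 31 at an unadjusted p under 0.05.

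*H2-K1* was at 2806, 2334 and 2312 rpm in WT and at 2182, 2224 and 1466 rpm in *SOD1* G93A cells (log2 -0.36, SE 0.19, limma adjusted p = 0.588). *H2-D1* was at 2619.9, 2356 and 2392 rpm and then at 2304, 2301 and 1618 rpm (log2 -0.26, SE 0.17, limma adjusted p = 0.628). *B2m* was at 7562, 6639 and 6374 rpm and then at 6587, 6659.7 and 5544 rpm, with overlap (log2 -0.13, SE 0.16, limma adjusted p = 0.800). In all 3 the lowest value was that of *SOD1* G93A replicate 3 and the highest that of WT replicate 1, the libraries that stood apart.

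*Tap1* was at 549, 522 and 481 rpm and then at 462, 468 and 255 rpm (log2 -0.44, SE 0.23, limma adjusted p = 0.588). *Psmb8* was at 359, 276 and 268 rpm and then at 267, 274 and 203 rpm (log2 -0.28, SE 0.16, limma adjusted p = 0.591). *Nlrc5* was at 103, 116 and 108 rpm and then at 99.0, 94.7 and 55.9 rpm (log2 -0.43, SE 0.21, limma adjusted p = 0.586). *SOD1* G93A replicate 3 was again the lowest library for each. Of the heavy chains *H2-Q8*, *H2-Q7* and *H2-M3* were at an unadjusted p under 0.05, with log2 values of -0.90, -0.81 and -0.44, as was *Tap2* with -0.48.

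Over the class I genes the median log2 value was -0.29, with 20 of 22 below 0. Without *SOD1* G93A replicate 3 it was -0.10, with 18 of 22 below 0, and without WT replicate 1 it was -0.24, with 22 of 22 below 0. Over all genes it was 0.01.

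The class II genes gave values of both signs, with a median of 0.27, of 0.11 without *SOD1* G93A replicate 3 and of 0.37 without WT replicate 1. *H2-Ab1* was at 60.7, 44.1 and 48.3 rpm in WT and at 37.0, 32.6 and 37.1 rpm in *SOD1* G93A cells, which did not overlap, at a log2 value of -0.50 (SE 0.13, limma adjusted p = 0.571). *H2-Aa* was at 4.56, 3.92 and 2.14 rpm and then at 4.39, 3.37 and 6.18 rpm (log2 0.41, SE 0.34). *H2-Eb1* was at 9.48, 6.67 and 5.78 rpm and then at 6.76, 5.70 and 5.94 rpm (log2 -0.21, SE 0.22). *Cd74* was at 83.5, 59.4 and 80.9 rpm and then at 78.9, 71.6 and 79.9 rpm (log2 0.06, SE 0.13), and without WT replicate 2 its log2 value was -0.08.

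*Ifi30* was the sixth gene at an unadjusted p under 0.05 (log2 0.28, SE 0.12, limma adjusted p = 0.573). *Ciita* had 1 read in WT and 7 in *SOD1* G93A cells, with a pooled ratio of 5.82 (0.747 to 262), and *H2-Oa* 10 and 30, with 2.49 (1.19 to 5.72). Under the mean of 10 with them were *H2-Q6*, *H2-DMb2* and *H2-Ob*. The remaining 16 genes tested had log2 values from -0.89 (*H2-T10*) to 0.54 (*Cd1d1*).

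The WT responses of both cell types were then set against each other, LPS in microglia minus the cytokines in astrocytes, on the libraries already used for each. The agents differ, and *Ddx3y* had a difference of -4.92 (limma adjusted p = 4.69e-08). Cell type, agent and the sex of the donors therefore cannot be told apart. The class I molecule and *Nlrc5* rose more in microglia, while the immunoproteasome genes other than *Psmb9* did not pass the limits for a difference. Of the 31 genes tested, 11 were called higher and 3 lower, against 6.73% of all 12334 genes called higher and 8.44% called lower. Of the 11, *H2-Q8*, *H2-T10* and *Psmb9* were under the mean of 10 in WT astrocytes alone, where their response is not measured. The counts over the 31 were 15 with edgeR, 13 with DESeq2 and 12 without a trend.

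The differences in response were 2.07 for *H2-K1* (SE 0.14, limma adjusted p = 4.8e-08), 1.79 for *H2-D1* (SE 0.20, limma adjusted p = 5.02e-06) and 1.17 for *B2m* (SE 0.17, limma adjusted p = 7.32e-05). *Tap1* had 2.02 (SE 0.17, limma adjusted p = 2.82e-07) and *Nlrc5* 2.34 (SE 0.29, limma adjusted p = 1.63e-05). After quantile normalization *B2m* was at 0.58 and not called (limma adjusted p = 0.00525), and *H2-K1*, *H2-D1* and *Tap1* were called at 1.38, 1.18 and 1.26. Of the genes called, *H2-Q8*, *H2-Q7* and *H2-T10* had the largest values, at 8.17, 7.21 and 5.41. In astrocytes *H2-Q8* rested on 15 reads in the quiescent and 8 in the activated libraries and *H2-T10* on 11 and 15, so these values do not compare 2 measured responses. Further, *H2-Q4* and *H2-T24* had 3.54 and 3.09. The call of *H2-Q8* was lost in 9 of 21 settings, among them each setting without a WT LPS library. *Psmb9*, at 2.42 (SE 0.37, limma adjusted p = 0.000122), was called neither with edgeR nor with DESeq2, and in astrocytes it rested on 12 and 17 reads.

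*Psmb8* differed by 0.38 (SE 0.38, limma adjusted p = 0.461), *Psmb10* by 0.27 and *Psme1* by -0.32, and *Psmb8* was below 0 after quantile normalization. *Erap1*, at -1.05 (SE 0.20, limma adjusted p = 0.000642), was called lower, a call lost in 10 of 23 settings. *Mr1* and *H2-DMa* were the other genes called lower, at -2.66 (SE 0.26, limma adjusted p = 1.57e-06) and -2.85 (SE 0.40, limma adjusted p = 5.52e-05). *Mr1* had a log2 fold change of 0.59 in activated astrocytes and of -2.09 in LPS microglia.

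Not called were the heavy chains *H2-T22*, *H2-M3* and *H2-T23* at 5.44, 1.64 and 1.34. *H2-T22* was called without WT quiescent microglia replicate 2 at 3.47, with edgeR at 3.55 and with a pseudocount of 5 at 4.69. *H2-T23* was called with edgeR at 1.60, with DESeq2 at 1.62 and without WT quiescent astrocytes replicate 1 at 1.78. *H2-M3* was called with a pseudocount of 5 at 1.80 and without WT quiescent astrocytes replicate 1 at 2.46. The loading genes *Tapbp*, *Tap2* and *Tapbpl* were not called either, at 0.72, 0.71 and 0.26, nor were *Psme2* at 0.73 and *Cd1d1* at -0.21. On the class II side *Ifi30* had -1.02, *H2-DMb1* -1.88, *Cd74* -0.74, *H2-Aa* -0.45, *H2-Ab1* 0.13 and *H2-Eb1* 0.35. The last 3 changed direction in single settings. *Ifi30* was called lower without WT quiescent astrocytes replicate 3, at -1.22, and *H2-DMb1* with a pseudocount of 5, at -1.79. All class II genes but *Ifi30* and *H2-DMa* were under the mean of 10 in astrocytes alone. *H2-Q6*, *H2-DMb2*, *H2-Oa*, *H2-Ob* and *Ciita* were not tested.

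Genes that work beside the 36 were listed by role as well. Interferons are the best known inducers of presentation. *Ifng* had 0 reads in every library and *Ifnb1* at most 3 reads in any, and the part of interferons in the values above was not tested. Of the interferon signalling genes tested, 4 of 11 were called higher in activated WT astrocytes: the factors *Irf1* (log2 2.45) and *Irf9* (1.51) and the receptor chains *Ifngr2* (1.63) and *Ifnar2* (1.41). In activated *SOD1* G93A astrocytes 5 of 11 were called higher, with *Irf1* at 2.61, *Irf9* at 2.53, *Ifngr2* at 1.57, *Stat2* at 1.27 and *Ifnar2* at 1.13. In LPS microglia 5 of 12 were called higher, with *Socs1*, *Stat2*, *Jak2*, *Irf1* and *Irf9* at 5.09, 3.07, 2.95, 2.42 and 1.15, and *Ifngr1* was called lower at -1.27. *Socs1* had 8 reads in the quiescent microglia together, and with a pseudocount of 5 its log2 value was 3.93. After quantile normalization *Irf9* was under 2-fold there (log2 0.98) and not called. Of all genes tested 6.0%, 6.74% and 10.2% were called higher in these comparisons, in that order. The medians were 0.74 in WT astrocytes and 0.78 in microglia.

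Between activated genotypes 2 of 11 interferon signalling genes were called, both higher in *SOD1* G93A astrocytes. *Irf9*, a factor that acts after type I interferon, was at 27.1, 25.1 and 24.5 rpm in WT and at 73.4, 61.8 and 69.8 rpm in *SOD1* G93A cells (log2 1.45, limma adjusted p = 4.06e-09), a call lost without the trend at limma adjusted p = 0.0034. *Stat2*, with which it acts, was at 33.5, 31.6 and 30.3 rpm and then at 90.8, 56.0 and 49.2 rpm (log2 1.02, limma adjusted p = 0.00011), a call lost in 5 settings. The genotypes were apart for each, and *SOD1* G93A replicate 1 was the highest. *Irf1* was at 42.2, 41.2 and 41.7 rpm and then at 54.5, 49.1 and 47.8 rpm and was not called. Of all 46 listed genes tested *Irf9* and *Stat2* were the only 2 called, against 78 of all 12098 genes, and 9 were at an unadjusted p under 0.05, beside 20.4% of all genes. In the genotype by state interaction limma called 0 of the 46, with 6 at an unadjusted p under 0.05, beside 8.30% of all genes.

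The constitutive proteasome was looked at beside the immunoproteasome. In LPS microglia 3 of its 12 genes were called higher, against 10.2% of all genes, *Psmb6* at log2 1.44, *Psma6* at 1.13 and *Psma5* at 1.05, with a median of 0.80. The call of *Psma5* was lost without the trend (limma adjusted p = 0.00241), after quantile normalization (log2 0.96), without WT quiescent replicate 2 (log2 0.93) and without WT LPS replicate 1 (log2 0.89), and that of *Psma6* after quantile normalization (log2 0.94). In activated WT astrocytes limma called 0 of 12, with 8 at an unadjusted p under 0.05, beside 46.8% of all genes, and a median of 0.37. The chaperones of loading had medians of 0.47 in WT astrocytes, where limma called 0 of 4 with 3 at an unadjusted p under 0.05, and *Hspa5* was called higher in LPS microglia at 1.17, though not after quantile normalization (log2 0.93). In the difference between cell types *Psmb6* was called at 1.04, a call lost in 5 settings.

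Around class II, the 7 genes of the factors that bind its promoters together with *Ciita* had a median of 0.13 in LPS microglia, where limma called 0 with 3 at an unadjusted p under 0.05 beside 61.6% of all genes, and of -0.12 in activated WT astrocytes, where limma called 0 with 3 at an unadjusted p under 0.05 beside 46.8%. Of 6 endosomal proteases, which cut antigens and the invariant chain, *Ctsd* and *Lgmn* were called lower in LPS microglia, at -2.26 and -1.73, against 10.6% of all genes called lower. *Ctsd* went from 31306, 32386 and 31815 rpm to 5989.9, 5574 and 5636 rpm. *Cd83*, which protects class II on the cell surface from removal, went from 22.6, 23.5 and 29.8 rpm to 187, 204 and 187 rpm (log2 3.14). The ligase gene *March1*, which removes it, had a log2 fold change of 1.21. These genes were called higher, as were 10.2% of all genes. *March8*, also listed, was at 94.6, 117 and 99.8 rpm and then at 80.4, 92.8 and 87.1 rpm. *Cd83* was called higher in activated WT and *SOD1* G93A astrocytes too, at 2.74 and 2.35, the former not without WT activated replicate 1 (limma adjusted p = 0.00122). In WT it was at 1.98, 1.10 and 2.27 rpm in the quiescent libraries and was tested through the activated ones.

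Among 15 other genes of the MHC region or of class I-like molecules, 4 were tested in microglia and all 4 were called: *H2-M2* higher at 5.85, *Procr* higher at 4.05, *Hfe* lower at -2.02 and *Fcgrt* lower at -1.27. *H2-M2* had 23 reads in the quiescent microglia together and was tested through the LPS libraries. Of all genes 10.2% were called higher and 10.6% lower there. In activated WT astrocytes *Hfe*, which binds the transferrin receptor, and *Fcgrt*, which carries antibodies, were called higher at 1.30 and 1.15, each call lost in 6 settings, and in *SOD1* G93A astrocytes *Hfe* was called at 1.17, though not without quiescent replicate 3 or without activated replicate 2 or 3 (limma adjusted p from 0.00162 to 0.00182). The differences between the cell types' responses were -3.29 for *Hfe* and -2.39 for *Fcgrt*. In the comparisons of quiescent genotypes and of LPS microglia by genotype limma called 0 of the 46 and 0 of the 48 listed genes tested, with 3 each at an unadjusted p under 0.05, beside 8.70% and 8.71% of all genes.

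Since 20 of the 22 class I genes tested were called higher in LPS microglia, the bases before the starts of the 36 genes were searched for short motifs, chosen after the values were known. RefSeq promoter windows of build GRCm38.p6 matched 26 of the 36 genes, and the 250 bases before each start were searched on both strands. The repeat GAAANNGAA of interferon-stimulated response elements was in 7.13% of all 32851 windows and in 4 of the 26 genes, 15.4%: *B2m*, *Erap1*, *H2-T22* and *H2-T23*. The shorter AANNGAAA, which overlaps it and was added after the *H2-K1* and *B2m* sequences had been seen, was in 21.3% of windows and in 12 genes, 46.2%. The letters GGGNNTTCC of κB sites were in 4.98% of windows and in 7 genes, 26.9%, of which *H2-K1*, *H2-D1*, *H2-Q4*, *H2-Q6* and *H2-Q7* are heavy chains and *H2-Aa* and *H2-Oa* belong to class II. The letters TTCNNNGAA of gamma-activated sites were in 7.02% of windows and in 3 genes, 11.5%, and CCAAT was in 33.8% of windows and in 19 genes, 73.1%. A gene with more than 1 window was counted once. The windows of *H2-K1*, *H2-D1*, *H2-Q4*, *H2-Q6* and *H2-Q7* resemble each other. Each holds the κB letters, then TTTCACTT, which matches AANNGAAA, and then CCAAT on either strand. The shares over the 26 genes therefore do not rest on independent windows.

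Shown are the windows of a classical and a non-classical heavy chain, the light chain, the transporter and a class II chain, which had log2 fold changes of 2.92, 6.59, 1.82, 3.36 and -0.49 in LPS microglia. Each reads 5′ to 3′ on the gene's own strand and ends at the base before the start, and capitals mark matches to any of the 5 motifs on either strand. In the order printed they lie at chr17:34000348-34000597 (minus strand), chr17:35438905-35439154 (plus strand), chr2:122147437-122147686 (plus strand), chr17:34187306-34187555 (plus strand) and chr17:34287824-34288073 (minus strand). The window of *Tap1* shares most of its bases with that of *Psmb9*, which starts on the opposite strand, and *H2-K1* has a second window that overlaps the one printed. A match is a run of letters, and binding was not measured.
H2-K1: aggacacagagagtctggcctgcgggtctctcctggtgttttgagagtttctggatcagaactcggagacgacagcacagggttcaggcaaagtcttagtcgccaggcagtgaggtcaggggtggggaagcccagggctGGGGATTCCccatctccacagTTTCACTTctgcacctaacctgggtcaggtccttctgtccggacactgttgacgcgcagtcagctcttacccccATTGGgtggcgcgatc
H2-Q7: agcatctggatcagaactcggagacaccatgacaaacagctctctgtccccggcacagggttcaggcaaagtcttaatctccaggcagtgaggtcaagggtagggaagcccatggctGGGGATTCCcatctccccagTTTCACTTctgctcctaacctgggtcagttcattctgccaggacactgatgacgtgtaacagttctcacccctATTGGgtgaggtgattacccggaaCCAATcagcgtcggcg
B2m: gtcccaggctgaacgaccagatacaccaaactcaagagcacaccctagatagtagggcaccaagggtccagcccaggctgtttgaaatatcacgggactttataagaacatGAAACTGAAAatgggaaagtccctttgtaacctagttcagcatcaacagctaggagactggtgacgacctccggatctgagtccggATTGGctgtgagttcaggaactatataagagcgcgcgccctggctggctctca
Tap1: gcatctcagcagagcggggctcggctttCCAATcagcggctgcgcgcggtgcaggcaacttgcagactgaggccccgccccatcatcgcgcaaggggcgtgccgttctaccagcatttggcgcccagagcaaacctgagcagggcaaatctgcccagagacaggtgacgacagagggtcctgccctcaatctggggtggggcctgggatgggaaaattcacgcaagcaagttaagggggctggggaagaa
H2-Aa: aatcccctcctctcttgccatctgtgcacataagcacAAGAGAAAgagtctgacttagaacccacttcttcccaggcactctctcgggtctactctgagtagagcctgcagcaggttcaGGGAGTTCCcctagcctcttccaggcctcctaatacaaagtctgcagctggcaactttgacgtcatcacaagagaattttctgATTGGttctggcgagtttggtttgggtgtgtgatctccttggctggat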

How the data were processed

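The deposited tables hold, for each library, a signal that the authors made by normalizing counts: per the submitters' processing notes, reads were aligned with STAR 2.7.3a to mm10, counted with RSEM and normalized with DESeq2. The tables' own columns (mean of normalized counts, log2 fold change, its standard error, test score, p and adjusted p) were not used. Whole reads were recovered from the 6 tables within 0.1 read, and the 15 libraries held by more than 1 table had equal reads in each.

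The 5 comparisons of 2 groups each used their 6 libraries alone. They were tested with limma 3.58.1 (R 4.3.3, intensity trend) on log2(normalized count + 1) over genes with a mean of at least 10, with Benjamini-Hochberg adjustment over all genes tested. Activation in *SOD1* G93A astrocytes, the interaction and the difference between cell types were fitted jointly over 12 libraries, on recovered reads with median-of-ratios size factors. Pooled ratios have exact 95% intervals (scipy 1.17.1). The model fits were tested on simulated data, in which all genes and libraries shared the same dispersion. Libraries that stand apart, as found here, were not simulated. Tables were made with Python 3.11.15 and pandas 2.3.3.

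The 36 genes and the gene and marker lists were chosen with earlier results of these data known, and 1 gene of the interferon list is not reported here. Values per library are given for *H2-K1*, *H2-D1*, *B2m*, *Tap1*, *Psmb8*, *Nlrc5*, *H2-Aa*, *H2-Ab1*, *H2-Eb1*, *Cd74* and *Ciita* (summed reads, for some of the class II genes in astrocytes and for *Ciita* in *SOD1* G93A LPS microglia), and in each comparison for up to 3 genes called higher and 3 called lower, those with the largest fold changes. Other genes are named where they differ from their role group, which was judged after their values were seen.

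Alternatives were pseudocounts of 0.5 and 5, no filter, at least 10 in every library, TMM and quantile scaling, edgeR 4.0.16 and DESeq2 1.42.0 on recovered reads, no trend, looser limits (adjusted p under 0.05, with and without the 2-fold limit), the replicate number as a block, near-identical genes summed, and each library left out.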

Additional observations from a re-analysis of the deposited data

Results flagged for a closer look

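The genotype by state interaction, which tests whether the cytokine response differed between *SOD1* G93A and WT astrocytes, drew attention to *H2-Q4* because its limma adjusted p was under 0.05. The interaction was 1.14 on the log2 scale (SE 0.21, limma adjusted p = 0.0286). Every *SOD1* G93A library was above every WT library in the activated and also in the quiescent state, which is a difference of genotype and not an interaction. Over the alternatives that kept *H2-Q4* as a single gene the interaction ran from 0.99 to 1.29, with adjusted p from 0.00594 to 0.0985. For the summed *H2-Q* genes it was 0.93 (limma adjusted p = 0.0863).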

How the results depend on the processing

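Of 3817 values of single genes under the alternatives, 3674 kept their direction and side of the limits, 73 lost a call, 45 gained one and 25 changed sign. The counts of 0 in quiescent astrocytes and in LPS microglia by genotype held in all settings.

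In activated WT astrocytes 5 genes were called, against 9 at an adjusted p under 0.05 with the 2-fold limit, 16 without it, and 8 each with a pseudocount of 5, edgeR and DESeq2. Between activated genotypes 4 were called, against 11 at an adjusted p under 0.05 at any fold and 0 without the trend. The interaction had 1 gene at each of the looser limits. For the difference between cell types 14 were called, and 8 with at least 10 counts in every library, where fewer genes were tested. Otherwise the cause was not tested.

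With single libraries left out, the counts ran from 4 to 7 for activation in WT astrocytes, 24 to 26 for LPS in microglia, 2 to 5 between activated genotypes, 13 to 14 for activation in *SOD1* G93A astrocytes and 12 to 15 between cell types, and were 0 to 0 elsewhere. Replicate numbers do not pair the libraries: same-numbered deviations correlated from -0.436 to 0.0587, and not every library correlated best with its own number. Pairs of other numbers ran from -0.133 to 0.522, highest in quiescent astrocytes for *SOD1* G93A replicate 3 with WT replicate 1 and, at 0.351, *SOD1* G93A replicate 1 with WT replicate 3. The cause was not tested. With the replicate number as a block the counts were 6, 25, 4, 13 and 14 in that order, and 0 elsewhere.

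Signs changed with single libraries left out, over ranges from lowest to highest. For activation in WT astrocytes *H2-DMa* ran from -0.26 to 0.17. In LPS microglia *H2-Eb1* ran from -0.10 to 0.23. Between activated genotypes *H2-T22* ran from -0.85 to 0.46 (and was 0.15 with DESeq2), *H2-DMa* from -0.40 to 0.19 and *Cd1d1* from -0.0025 to 0.53. Between genotypes in LPS microglia *Cd74* ran from -0.0771 to 0.13. For activation in *SOD1* G93A astrocytes *H2-Q7* ran from -0.53 to 0.14, *H2-T22* from -0.28 to 1.03 and *H2-DMa* from -0.65 to 0.0013. The interaction of *Psmb8* ran from -0.21 to 0.56. Between cell types *H2-Ab1* ran from -0.36 to 1.01 (and was -0.16 with a pseudocount of 0.5) and *H2-Eb1* from -0.50 to 0.91, and after quantile normalization *Psmb8* was -0.0546 and *H2-Aa* 0.0853. The cause was not tested.

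Depth limits the class II genes in astrocytes most, where 9 of 11 were under the mean of 10 and rested on at most 44 reads a group. Division of reads among near-identical *H2-Q* and *H2-T* genes limits their single values at any depth. A library left out leaves 2 in its group.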
